A study of Mus musculus with 2 samples.

Results

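The microRNA (miRNA) genes described here are the hairpins of the Mirg cluster, from Mir379 to Mir410 and on to Mir3072, in the imprinted Dlk1-Dio3 region of mouse chromosome 12. They were chosen by position, not by level, as all miRNA genes of GENCODE M21 (mm10) on the plus strand in a window around Mirg, where the first hairpin starts at 109709060 and the last ends at 109747960. They number 39 of the 2202 miRNA genes counted. The samples were the left cortex of 2 males of the strain B6CASTF1/J, aged 10 days, each sequenced for its microRNAs, and they form 1 group with no other tissue, age, genotype or treatment. The strain is a first-generation hybrid, made by crossing B6 with CAST mice. The labels number the specimens as different males and as biological replicates. Since there was 1 group, the results are the levels of the hairpins, their order and their spread between the libraries. The nearest miRNA genes of the same strand outside the window were Mir882, 26786 bases before Mir379, and Gm27299, 926139 bases after Mir3072, and both had 0 reads in both libraries.

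The Dlk1-Dio3 region is imprinted, and its noncoding RNAs, among them Meg3, Rian, Mirg and the miRNAs between and within them, are made from the maternal chromosome. The cluster is found in placental mammals and is known mainly from brain, where neuronal activity raises its transcription through the factor Mef2. Mir134, the member best studied in neurons, limits the size of dendritic spines by repressing Limk1, a kinase acting on actin. Each hairpin is cut to a pair of mature strands, and a strand recognises its targets mainly by its seed, bases 2 to 8. The counts give reads per hairpin and do not separate the strands, nor the B6 and CAST alleles.

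Mature sequences of the 5 most abundant hairpins and of Mir134 are printed first, since they carry most of the reads or the best-known function. They were taken from RefSeq (GRCm38.p6), which held 71 mature sequences for 38 of the 39 members. For Mir487b it held the 5p strand only, and the counts do not tell which strand its reads came from. Each is written 5′ to 3′ with its seed in capitals.
miR-487b-5p: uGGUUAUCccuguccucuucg
miR-382-5p: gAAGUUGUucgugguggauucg
miR-382-3p: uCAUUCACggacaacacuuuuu
miR-541-5p: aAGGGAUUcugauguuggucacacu
miR-541-3p: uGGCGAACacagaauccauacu
miR-411-5p: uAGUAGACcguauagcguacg
miR-411-3p: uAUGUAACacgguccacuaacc
miR-379-5p: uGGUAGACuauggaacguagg
miR-379-3p: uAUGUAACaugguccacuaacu
miR-134-5p: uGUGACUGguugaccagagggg
miR-134-3p: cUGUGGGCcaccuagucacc

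Sense reads of miRNA genes numbered 2677910 in replicate 1 and 1750076 in replicate 2, which are 29.5% and 23.5% of all reads and are called assigned reads. Levels are counts per 1000000 assigned reads (CPM). They are per hairpin and not divided by hairpin length, because the libraries hold short mature strands. A count of 3 reads equals 1.12 CPM in replicate 1 and 1.71 CPM in replicate 2. The cortex was checked by its markers. The 8 neuronal and brain markers summed to 37104 CPM in replicate 1 and 30049.6 CPM in replicate 2, with 5 of them detected. These 5 did not move together. Mir128-1 went from 18242 CPM in replicate 1 to 9510 CPM in replicate 2 and Mir137 from 11808 to 8069 CPM. Mir132 went the other way, from 3886 to 9221 CPM. Mir138-1 (3151 and 3235 CPM) and Mir218-1 (10.8 and 9.71 CPM) changed little. The 3 genes of miR-124, a miRNA that defines neurons, had 10 reads or fewer each, but they share 20 or more bases with each other, and a read that fits several places enters no gene's count, so these genes check nothing. The same holds for the muscle genes Mir1a-1 and Mir1a-2, at 0 reads. The neuronal and brain markers Mir128-1, Mir138-1 and Mir218-1 and the oligodendrocyte marker Mir219a-2 also share 20 or more bases with another hairpin. Their counts, and the sums that hold them, can therefore miss reads. The muscle marker without such a copy, Mir206, stood at 21.7 and 25.7 CPM, and the liver marker Mir122 at 55.6 and 45.1 CPM. The 3 endothelial and mural markers summed to 13639 and 15214 CPM, and the 3 of microglia and leukocytes to 950 and 723 CPM. Some sums differed between the libraries, with 813 and 1406 CPM for 2 oligodendrocyte markers, 1332 and 3721 CPM for 5 of choroid plexus and ependyma (4 detected), and 814 and 56.6 CPM for 3 of red blood cells. The 4 detected choroid plexus and ependyma markers were all higher in replicate 2. They were Mir34c (93.4 and 993 CPM), Mir1298 (213 and 973 CPM), Mir449a (249 and 578 CPM) and Mir204 (775 and 1176 CPM). Of the 3 red blood cell markers, Mir451a (737 and 20.6 CPM) and Mir144 (52.3 and 10.3 CPM) differed, while Mir486 (25.4 and 25.7 CPM) was nearly equal. The 2 astroglial markers went opposite ways, Mir99b from 10801 CPM in replicate 1 to 3283 CPM in replicate 2 and Mir29a from 907 to 1249 CPM. The part of these differences in the values below was not tested.

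The Mirg cluster held 10.2% ± 0.504 of all assigned reads (SD, n = 2). Replicate 1 gave 9.84% and replicate 2 gave 10.6%, with 95% Wilson intervals of 9.80 to 9.87 and of 10.5 to 10.6 that cover counting error only. With reads that fit several places added to the total, and none of them to the cluster, the mean share was 4.54%. In tissue, fewer cells that make these miRNAs and less of them per cell cannot be told apart. Of the 39 members, 36 were detected (92.3%), that is at 2 CPM or more in both libraries, beside 20.1% of all 2202 miRNA genes. Hairpins that share 20 or more bases with another hairpin can miss reads. They were 12.8% of the members and 50.02% of the 2163 other hairpins. In the rest of the imprinted region, described below, 80% of the miRNA genes were detected. The median level of the 36 was 497 CPM, beside 89.4 CPM over all 442 detected genes. Above 1000 CPM stood 16 of the 36 (44.4%), beside 105 of the 442 (23.8%).

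A few hairpins held most of the cluster's reads. Mir487b was the most abundant by its mean, with 19093 CPM in replicate 1 and 35792 CPM in replicate 2 (27442 ± 11807 CPM). Mir382 reached 21034 and 18008 CPM (19521 ± 2139.55 CPM). Which of them led therefore differed between the libraries, Mir382 in replicate 1 and Mir487b in replicate 2. Mir541 followed with 11699 and 9882 CPM (10791 ± 1285 CPM). Mir411 had 7296 and 8049.9 CPM (7673 ± 533 CPM), and Mir379, the first hairpin of the cluster, 7493 and 6579 CPM (7036 ± 646 CPM). These 5 took 67.7% of the cluster's reads in replicate 1 and 74.2% in replicate 2 (71.0% ± 4.60), and 13 and 12 members made up 90% of them. Along chromosome 12 (mm10) they lie at 109727333 to 109727414 (Mir487b), 109733771 to 109733846 (Mir382), 109742409 to 109742498 (Mir541), 109710175 to 109710256 (Mir411) and 109709060 to 109709125 (Mir379). Over all 2202 genes, Mir487b ranked 9, Mir382 ranked 11 and Mir541 ranked 21 by mean level. A read that fits several places enters no gene's count, so genes with near copies can rank too low here.

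**Figure D1:**
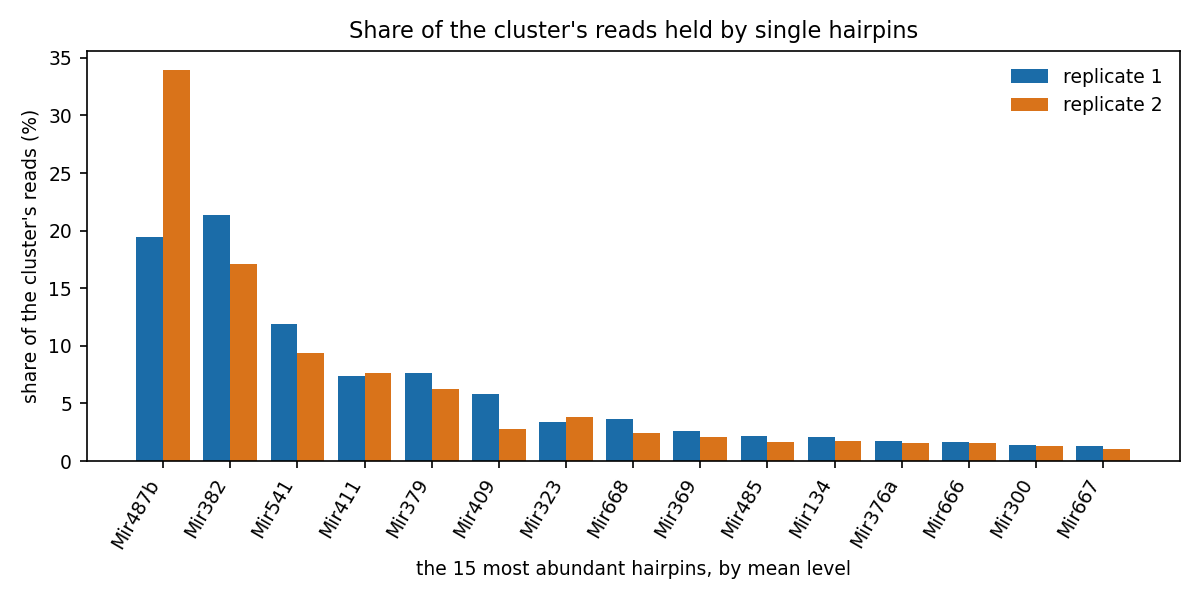
Share of the cluster's reads (%) held by each of its 15 most abundant hairpins, ordered by mean level, as 1 bar per library. Mir487b held 19.4% in replicate 1 and 33.9% in replicate 2, and Mir382 held 21.4% and 17.1%. Mir409 held 5.81% and 2.80%, and Mir667, the last shown, 1.34% and 1.04%.

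The next members stood between 1000 CPM and the level of Mir379. Mir409 had 5719 and 2955 CPM (4337 ± 1955 CPM), with the widest relative gap between the libraries among these. Mir323 had 3338 and 4061 CPM (3699.7 ± 511 CPM), Mir668 had 3561 and 2582 CPM (3071 ± 693 CPM), and Mir369 had 2570.3 and 2208 CPM (2389 ± 256 CPM). Mir485, whose product represses the synaptic vesicle protein SV2A, had 2176 and 1768 CPM (1972 ± 288 CPM). Mir134 had 2013 and 1866 CPM (1939 ± 104 CPM) and so ranked 11 in the cluster. The ranges of Mir485 and Mir134 over the libraries overlapped, and their means differed 1.02-fold. Mir376a (1736 and 1679 CPM), Mir666 (1619 and 1626 CPM), Mir300 (1354 and 1389 CPM), Mir667 (1316 and 1095 CPM) and Mir154 (1128 and 1276 CPM) completed the 16 members above 1000 CPM.

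Between 100 and 1000 CPM lay 13 members, from Mir412 at 923 and 837 CPM down to Mir299a at 174 and 166 CPM. Among them Mir381 had 487 and 552 CPM, Mir329, which with Mir134 is known for its part in the growth of dendrites, 489 and 459 CPM, and Mir376c 524 and 426 CPM, with 206 and 163 CPM for Mir376b. Mir410, which gives the cluster its usual end, had 250.2 and 271 CPM, and Mir3072, the last member along the chromosome, 307 and 222 CPM. Detected members under 100 CPM numbered 7. They were Mir377 (79.5 and 109.7 CPM), Mir1193 (75.4 and 41.1 CPM), Mir494 (45.2 and 50.9 CPM), Mir758 (37.7 and 45.1 CPM), Mir679 (34.4 and 39.4 CPM), Mir544 (21.7 and 9.14 CPM) and Mir1197 (4.85 and 2.86 CPM). The highest mean, that of Mir487b, was 7117-fold above the lowest detected, that of Mir1197, which rests on 13 and 5 reads. The ratio was 4333 in replicate 1, with Mir382 the highest there, and 12528 in replicate 2.

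Not detected were Mir654, Mir453 and Gm27379. Mir654 and Mir453 had 0 reads in both libraries, which allows up to 1.12 CPM in replicate 1 and 1.71 CPM in replicate 2. Gm27379, a hairpin predicted by the annotation, had 1 and 2 reads.

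In order of mean level, the 36 detected members form 35 pairs of neighbours. In 17 pairs the ranges over the 2 libraries were apart, as between Mir382 and Mir541 or between Mir541 and Mir411. In 18 pairs they overlapped, as between Mir487b and Mir382, Mir411 and Mir379, and Mir409 and Mir323. The order from Mir381 through Mir376c, Mir329, Mir543, Mir380, Mir496a and Mir3072 to Mir410 held no neighbours whose ranges were apart.

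**Figure D2:**
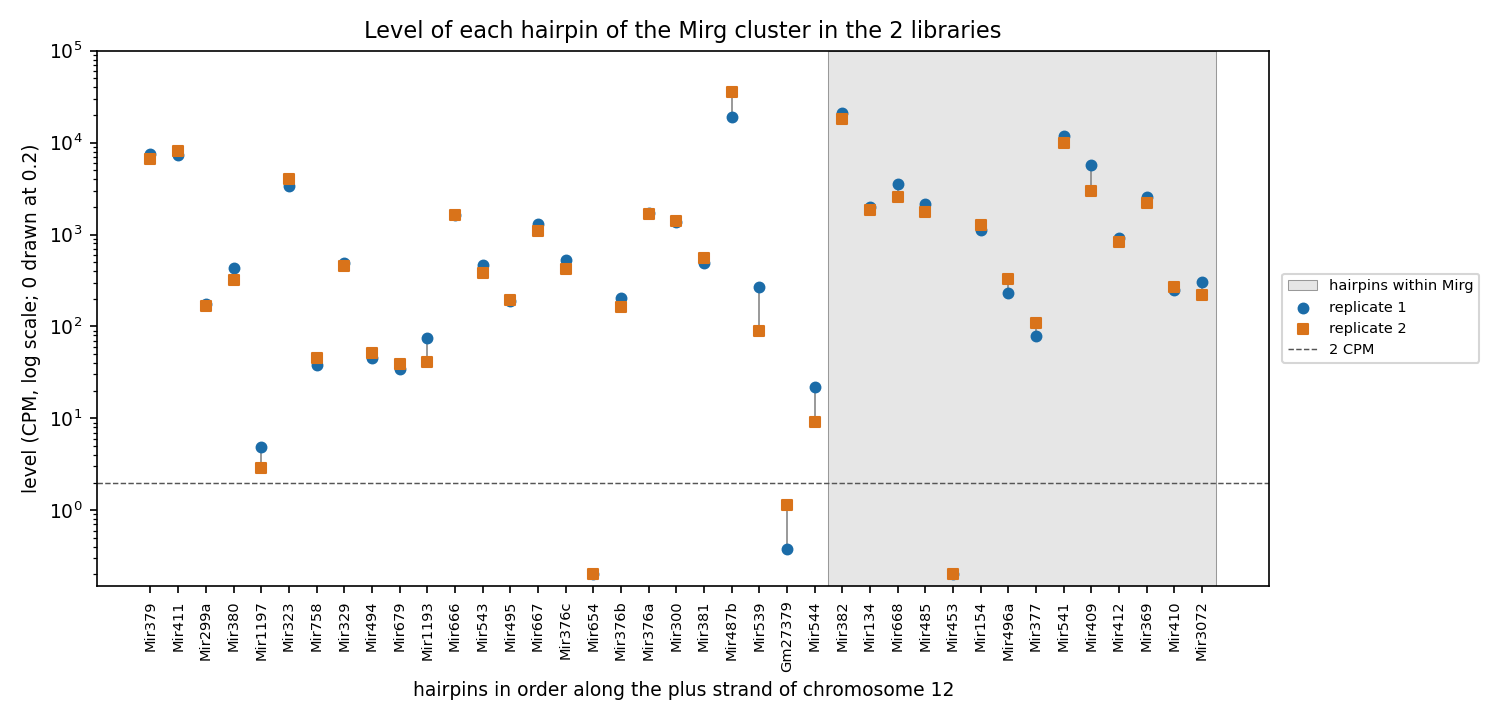
Level in CPM (log axis) of all 39 hairpins in order along the plus strand, with a circle for replicate 1 and a square for replicate 2 joined by a line. Hairpins within the Mirg gene are shaded, levels of 0 are drawn at 0.2 and the dashed line marks 2 CPM. Levels range from under 10 CPM (Mir1197) to over 10000 CPM (Mir487b, Mir382, Mir541), and Mir654, Gm27379 and Mir453 lie below the line.

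The 39 hairpins spanned 38901 bases, from chr12:109709060 to 109747960, with a median gap of 556 bases between neighbours. Only part of them lies in the gene that names the cluster. GENCODE M21 places Mirg, a long noncoding RNA, at 109729764 to 109749460, and 14 members, from Mir382 to Mir3072, lie inside it. Mir134, Mir485, Mir377 and Mir410 lie whole in an exon of at least 1 Mirg transcript. Mir453, Mir154, Mir496a, Mir541 and Mir409 lie in introns, and Mir382, Mir668, Mir412, Mir369 and Mir3072 overlap an exon by 2, 1, 12, 1 and 58 bases. The other 25 members, from Mir379 to Mir544, lie before Mirg, between annotated transcripts of this strand.

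The 14 hairpins inside Mirg held 5.17% of the reads in the first library and 4.23% in the second, and the 25 before it 4.67% and 6.32%. Without Mir487b the hairpins before Mirg held 2.76% and 2.74%. Which side was larger depends on the annotation. RefSeq starts Mirg at 109734981, which puts Mir382, Mir134, Mir668 and Mir485 before it and leaves 10 hairpins inside. These 10 held 2.29% and 1.81%, and the 29 before held 7.55% and 8.74%, or 5.64% and 5.16% without Mir487b, so the side before was larger in both libraries. By GENCODE, the median level of detected members was 1939 CPM inside Mirg (13 hairpins) and 422 CPM before it (23 hairpins), and 8 members on each side exceeded 1000 CPM. By RefSeq, Mir382, Mir134, Mir668 and Mir485, each above 1000 CPM, count as before Mirg. These medians and counts therefore hold for GENCODE only. Across the 36 detected members, the distance from Mir379 and the level had a Spearman's rho of 0.204 in replicate 1 and 0.193 in replicate 2, given as a description since the members share libraries.

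Some neighbouring hairpins had very different levels. Of 35 pairs of neighbours among detected members, 10 were over 10-fold apart in both libraries. The median ratio of neighbours was 4.87 in replicate 1 and 3.92 in replicate 2, beside 7.02 and 7.53 over all 630 pairs of detected members. Mir1197 and Mir323 lie 71 bases apart, and Mir323 had 8940 and 7107 reads against 13 and 5, ratios of 688 and 1421. Mir323 and Mir758, 216 bases apart, differed 88.5-fold and 89.96-fold. Mir541 stood 147-fold and 90.1-fold above Mir377, and Mir487b stood 39.2-fold and 64.8-fold above Mir381. Hairpins close in space could also be close in level, as Mir379 and Mir411 (1.03-fold and 1.22-fold apart), Mir376a and Mir300 (1.28-fold and 1.21-fold) and Mir494 and Mir679 (1.32-fold and 1.29-fold).

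The mature sequences fell into few groups of equal seed. The 71 sequences held 65 different seeds, and 6 seeds were shared by a pair of members each, 11 members in all. RefSeq held both strands for only 33 members, so the seed counts here and below can miss seeds of absent strands. Members that share a seed are shown next to each other, because the seed is the main part of a miRNA that pairs with a target.
miR-379-5p: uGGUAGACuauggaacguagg
miR-1193-5p: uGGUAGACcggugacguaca
miR-379-3p: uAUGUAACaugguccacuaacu
miR-411-3p: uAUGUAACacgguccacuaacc
miR-1197-5p: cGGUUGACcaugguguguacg
miR-758-5p: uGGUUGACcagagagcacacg
miR-494-5p: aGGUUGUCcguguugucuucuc
miR-410-5p: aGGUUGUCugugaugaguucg
miR-453: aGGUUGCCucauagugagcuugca
miR-496a-5p: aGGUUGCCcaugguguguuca
miR-376c-5p: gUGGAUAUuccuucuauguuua
miR-376b-5p: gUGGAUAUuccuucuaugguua

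Hairpins with a common seed differed in level. Mir379 and Mir411, alike in the seed of their 3p strands, had means 1.09-fold apart with overlapping ranges. Mir379 and Mir1193, alike in the seed of their 5p strands, stood 121-fold apart. Mir758 stood 10.7-fold above Mir1197, Mir410 5.43-fold above Mir494 and Mir376c 2.58-fold above Mir376b, while Mir453 had no reads beside 232 and 325 CPM for Mir496a. Which strand the reads came from was not analysed here, so these are levels of hairpins and not of the seeds.

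Further pairs differed by a single base in the seed. Counting from 1 at the 5′ end, 37 pairs of strands of the same arm, from 25 members, were 1 base apart. The seed of miR-376b-3p differs from that of miR-376a-3p by A4G, that of miR-300-3p from that of miR-381-3p by G4A, and that of miR-485-3p from that of miR-154-3p by G2A. The miR-376 transcripts are known in brain for adenosine-to-inosine editing within their seeds, and edited reads were not distinguished in these counts. Outside the cluster, 11 of the 71 mature sequences shared their seed with another mouse miRNA in RefSeq, such as miR-329-3p with miR-362-3p and miR-410-3p with miR-344d-3p and miR-344e-3p. Among these was also miR-299a-3p with miR-299b-3p, whose hairpin lies opposite Mir299a. Pairs of seeds 1 base apart and shared seeds were not counted among the other mouse miRNAs, so neither count has a comparison here.
miR-376a-3p: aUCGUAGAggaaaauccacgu
miR-376b-3p: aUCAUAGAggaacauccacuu
miR-300-3p: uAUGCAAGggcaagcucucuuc
miR-381-3p: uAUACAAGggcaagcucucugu
miR-485-3p: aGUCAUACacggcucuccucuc
miR-154-3p: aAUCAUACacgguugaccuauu

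The hairpins also resembled each other outside the seeds. Every word of 6 bases was counted in the sense strand of all 2202 GENCODE hairpins, and the words named were picked after their counts were seen. UUCGCU occurred in 10 of 39 members (25.6%) and in 6 of the 2163 other hairpins (0.277%). UACUUG also occurred in 10 members, against 41 of the others (1.90%). Mir323, Mir487b, Mir382, Mir369 and Mir410 held both words, as did 0 of the other hairpins. Of the 10 members with each word, 9 had UACUUG starting at base 1 to 5 of the hairpin and 9 had UUCGCU starting at base 23 to 33. These RefSeq hairpins are printed with both words in capitals to show that equal words stood in hairpins at very different levels, from 250.2 and 271 CPM for Mir410 to 19093 and 35792 CPM for Mir487b.
Mir323: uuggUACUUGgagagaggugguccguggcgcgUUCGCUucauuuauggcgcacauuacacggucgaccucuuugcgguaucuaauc
Mir487b: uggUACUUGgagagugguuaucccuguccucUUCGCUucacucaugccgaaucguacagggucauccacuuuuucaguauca
Mir382: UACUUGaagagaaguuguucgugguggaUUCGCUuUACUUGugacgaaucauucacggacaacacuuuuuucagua
Mir369: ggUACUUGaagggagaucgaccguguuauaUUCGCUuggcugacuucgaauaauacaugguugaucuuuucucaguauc
Mir410: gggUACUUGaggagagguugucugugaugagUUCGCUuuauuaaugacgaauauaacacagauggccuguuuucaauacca

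Stretches of 20 equal bases, long enough for a read to map to more than 1 place, were found in few members. They occurred in 5 of the 39 (12.8%), all shared within the cluster, beside 50.02% of the other 2163 hairpins. Among detected hairpins the shares were nearer, 13.9% of the 36 members and 20.2% of the 406 others. Mir376b and Mir376c shared 31 bases, Mir411 and Mir758 shared 21, and Mir376b and Mir487b shared 20 at their ends. No whole mature sequence of the RefSeq table lay in a shared stretch. How many reads that fit several places came from these hairpins was not analysed here. The loop between the mature strands held UGU, a triplet known to favour cutting by the Microprocessor complex, in 14 of the 33 members with both strands in the table (42.4%), beside 186 of 624 other hairpins (29.8%). UGU was counted at any place in the loop and undetected hairpins were not left out, so these counts do not show sites that work in cutting.

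Between the libraries most members were close. Of the 36 detected members, 30 (83.3%) lay within 1.5-fold, beside 68.8% of all detected genes, whose levels were mostly lower, 80% of genes at 1000 CPM or more and 93.8% of the 16 detected genes in the rest of the imprinted region. Their median absolute log2 ratio was 0.25, beside 0.35 over all detected genes. The signed median, replicate 2 over replicate 1, was -0.13, beside -0.07 over all detected genes, with 22 members lower and 14 higher in replicate 2. Spearman's rho of the levels of the 36 members between the libraries was 0.988, a description across genes.

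**Figure D3:**
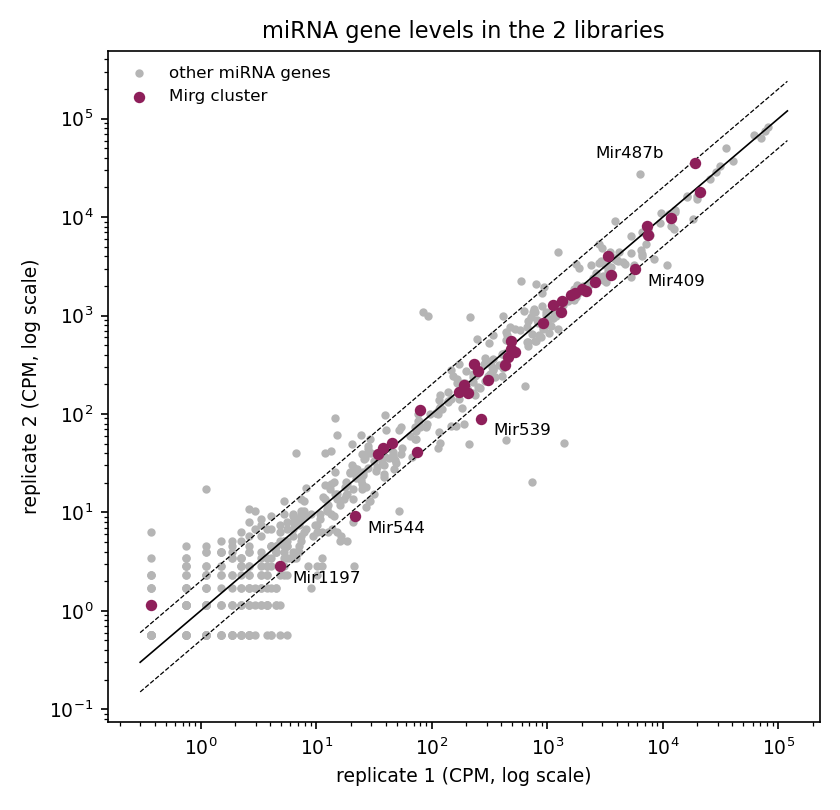
Level in replicate 2 against level in replicate 1 (CPM, log axes) for every miRNA gene with reads in both libraries, grey for other genes and dark for the Mirg cluster. The solid line marks equal levels and the dashed lines 2-fold differences, and of the detected members Mir539 and Mir544 lie outside them, while Mir487b and Mir409 lie just inside.

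Mir539 and Mir544 were lower in replicate 2 and passed the library test, Fisher's exact test (two-sided) of a gene's reads against the remaining assigned reads adjusted by Benjamini-Hochberg over 542 tested genes, with a log2 ratio no nearer to 0 than 1. They were 2 of 36 tested members, beside 12.0% of all tested genes past the test in either direction. Lower in replicate 2 were 6.27% of all tested genes, close to the members' share, and higher were 5.72%, beside 0 of the 36 members. Mir539 had 712 reads in replicate 1 and 157 in replicate 2, or 266 and 89.7 CPM (178 ± 125 CPM), a log2 ratio of -1.56 (95% counting interval -1.83 to -1.32, adjusted p = 2.12e-41). Mir544 had 58 and 16 reads, a log2 ratio of -1.21 (-2.14 to -0.43, adjusted p = 0.00366). The 2 hairpins are near neighbours, 1122 bases apart with only Gm27379 between them. The hairpin just before Mir539, Mir487b, differed in the other direction, with 51130 and 62638 reads and a log2 ratio of 0.91 (0.89 to 0.92), under the minimum of 1.

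The test compares these 2 libraries and covers counting error only. With edgeR's exact test, using the common dispersion of an intercept-only fit to the same libraries (a coefficient of variation of 37.8%), 0 members passed, 0 members had an unadjusted p under 0.05, and 5 of 542 genes passed. Without the minimum on the log2 ratio, 25 of 36 members passed Fisher's exact test, beside 42.3% of all tested genes. Members with many reads reach a small p at a small difference, as Mir382 did with a log2 ratio of -0.22 (-0.24 to -0.20).

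**Figure D4:**
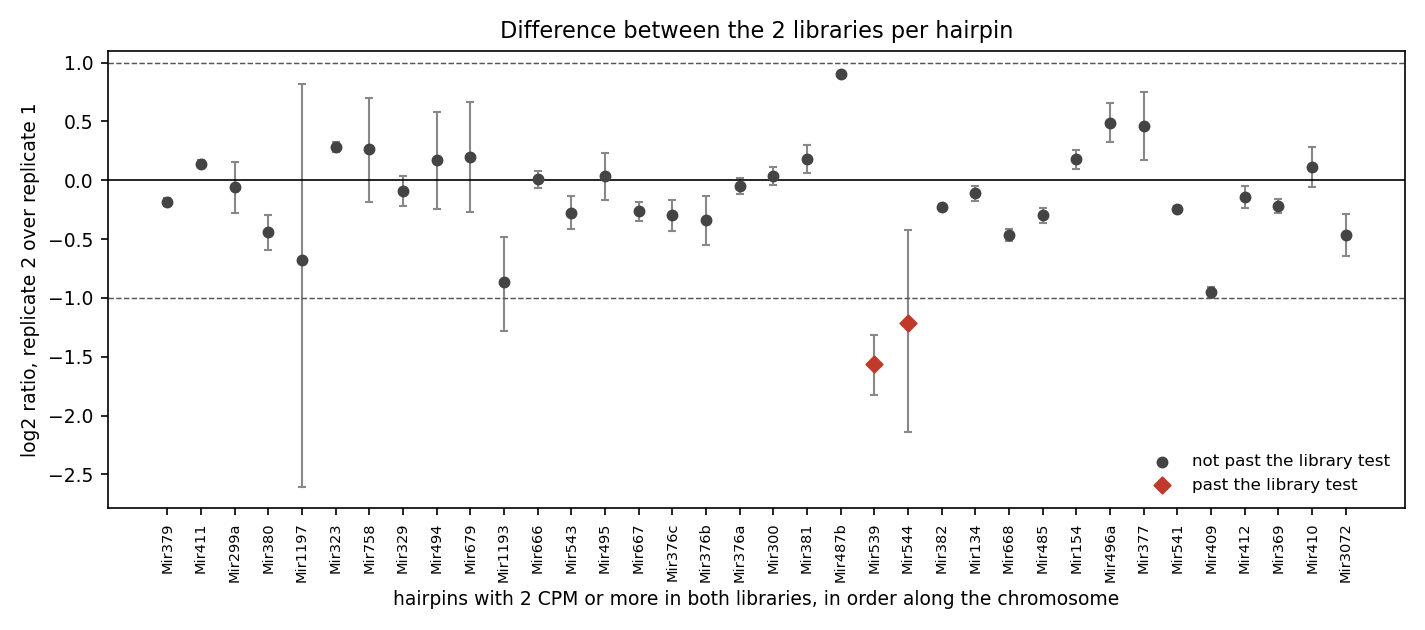
Log2 ratio of replicate 2 over replicate 1 for the 36 detected hairpins in order along the chromosome, with 95% exact binomial counting intervals and dashed lines at a log2 ratio of 1 in either direction. Mir539 (-1.56) and Mir544 (-1.21), drawn as diamonds, lie below the lower line, and Mir409 (-0.95) and Mir487b (0.91) lie just within.

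Reads of the cluster came from 1 strand. The opposite strand of the 39 hairpins had 0 reads in both libraries. Over 5 of them, Mir299a, Mir380, Mir376a, Mir539 and Mir409, the annotation places another hairpin on the opposite strand, and these opposite hairpins had 0 reads of their own. The 5 members held 22298 and 9113 reads by strand, which are 8.46% and 4.93% of the cluster's reads, but 0 in the column that ignores strand. Levels of these 5 therefore rest on the stranded count.

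The rest of the imprinted region, 20 miRNA genes of the plus strand from Mir1906-1 (from 109544541) to Mir882 (to 109682273), held a similar share of reads in fewer hairpins. Its share of assigned reads was 12.0% in the first library and 12.3% in the second (12.1% ± 0.174), beside 9.84% and 10.6% for the Mirg cluster, so in both libraries the cluster's share was the lower. Of its 20 genes 16 were detected, with a median of 2122 CPM beside 497 CPM in the cluster. Its 3 highest genes were Mir770 (35510.2 and 50806 CPM), in Meg3, and Mir127 (40343 and 36983 CPM) and Mir433 (19978 and 16352 CPM), which lie opposite the imprinted gene Rtl1. Of its 16 tested genes 1 passed the library test, Mir370 with a log2 ratio of -1.19, named after its value was seen, beside 2 of 36 in the cluster.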

How the data were processed

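For each library the authors deposited a file of raw counts, made against mm10 and GENCODE M21 as the accompanying text says. No source used here names the aligner, the counter or the trimming. Of the 3 count columns the one for the gene's own strand was used, and 4 rows without a gene were dropped. Of all reads in replicates 1 and 2, 25.5% and 42.4% were unmapped, 38.2% and 28.3% fitted several places, and 6.93% and 5.74% lay outside the genes.

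Counts were divided by the column sum over 2202 genes. Log2 ratios had 0.5 reads added to each count. All genes at 2 CPM or more in either library entered the test. Sequences were compared in Python 3.11.15, with scipy 1.17.1 for tests. Folding energies came from RNAfold 2.7.2, and edgeR 4.0.16 and DESeq2 1.42.0 in R 4.3.3 gave alternatives. Group and replicate numbers follow the labels, and the Fisher p-values cover counting error between these 2 libraries only.

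The members and lists were chosen with earlier results of these data known. Any member could be named. The 10 highest, those past the test, those not detected, Mir379, Mir410, Mir134 and those sharing a seed were given in full, with the 3 highest genes of the comparison list. The seeds 1 base apart named, the words, Mir370, leaving out Mir487b and the RefSeq bounds of Mirg were chosen after the values were seen.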

Additional observations from a re-analysis of the deposited data

How the results depend on the processing

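The share of assigned reads held by the cluster was 4.54% with reads mapped to more than 1 place added to the total and none of them to the cluster. It was 6.61% without the 5 members that share 20 bases with another hairpin, Mir487b among them. Without Mir487b alone, an alternative chosen after seeing the data, it was 7.45%, so these 2 alternatives overlap. The hairpins inside Mirg held 4.70% by GENCODE and 2.05% by RefSeq, also an alternative chosen after seeing the data. The cluster's share ranged from 9.84% to 10.6% over the single libraries. The 5 most abundant members held 76.0% of the cluster's reads when counted without regard to strand and 66.2% without Mir487b, and 67.7% to 74.2% over the single libraries, each of which had 36 members at 2 CPM or more. Past the library test were 2 members, 1 without regard to strand (Mir544, since Mir539 then has 0 reads), 0 with edgeR's exact test and 25 without the minimum on the log2 ratio. The edgeR dispersion came from the libraries compared, so it includes their differences, and the adjusted p there was 0.914 for Mir539 and 1 for Mir544. With a minimum of 10 CPM, no minimum, TMM library sizes or DESeq2 size factors, Mir539 and Mir544 stayed past the test, and the median log2 ratio of the members ran from -0.14 to -0.06 over all alternatives tried. With 1 library per animal and 1 group, differences between animals, dissections and library preparations cannot be told apart. No paired analysis was possible because there is 1 group.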

Other observations

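Features of the hairpins followed their levels weakly. Across the 36 detected members, Spearman's rho with the level was 0.152 in replicate 1 and 0.153 in replicate 2 for GC content, -0.133 and -0.149 for the predicted folding energy per base, and -0.0335 and -0.0468 for hairpin length. The members share libraries, so these values are descriptions. The members' hairpins had a median GC content of 43.6%, from 29.1% (Mir376c) to 72.3% (Mir3072), beside 50.9% over the other 2163 hairpins.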
